A study of Mus musculus with 10 samples.

Results

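The oestrogen receptor gene Esr1 was described in 10 RNA-seq libraries of mouse left atria together with 7 genes tied to it by function. They were the other nuclear oestrogen receptor Esr2, the oestrogen target genes Pgr and Greb1, the membrane receptor gene Gper1, and the oestrogen-related receptor genes Esrra, Esrrb and Esrrg. Esr1 was selected on its counts, which were far higher in the KO than in the WT libraries. The other genes were chosen by their relation to it, with earlier results of these data known. All 8 have a row among the 37583 gene rows of each library. After a filter on low counts 15364 genes were tested, and 7 of the 8 were among them. Pgr was not, because it had no read in any library.

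The atria came from adult mice. The CTL group (3 libraries) received vehicle, and the IBR group (3 libraries) received ibrutinib, a kinase inhibitor that blocks B cell receptor signalling through Btk. Wild-type animals without treatment (WT) and animals with a heart-directed knockout of Csk, the kinase that holds Src family kinases inactive (KO), gave 2 libraries each, named WT35, WT338, KO26 and KO337. The labels name no Cre line, promoter, inducing drug, strain, sex, age in weeks or drug dose, and do not say that each library is a separate animal, so p-values measure the spread between libraries. Levels are given in CPM, the depth-scaled count unit, after scaling by the trimmed mean of M values. Y-linked Ddx3y lay between 107 and 242 CPM in all 10 libraries and Xist at 2.31 CPM or below.

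Oestrogen receptors are transcription factors of the nuclear receptor family: on binding oestradiol they pair up, bind DNA at oestrogen response elements and recruit coactivators. Esr1 encodes the alpha form and Esr2 the beta form, and both are found in the cardiovascular system, while Gper1 encodes a membrane receptor proposed to mediate rapid oestrogen responses. The oestrogen-related receptors resemble them in their DNA-binding domain but do not bind oestradiol. With the coactivators of the PGC-1 family they drive genes of mitochondrial energy production in heart muscle.

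The coding sequence of the first zinc finger of the DNA-binding domain is shown for the 6 nuclear receptors in the set, because it shows how close these genes are in their most conserved part and so whether reads of one could be counted for another. The sequences are from the GENCODE vM21 transcripts, 69 bases each, 5′ to 3′. Capitals mark the codons of the P box, the stretch that reads the DNA response element.
Esr1: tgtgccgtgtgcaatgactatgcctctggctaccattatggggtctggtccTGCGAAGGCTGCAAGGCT
Esr2: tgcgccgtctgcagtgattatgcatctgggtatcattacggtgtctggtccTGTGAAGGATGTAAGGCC
Pgr: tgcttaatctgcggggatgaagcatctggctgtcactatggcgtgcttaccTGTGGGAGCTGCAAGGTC
Esrra: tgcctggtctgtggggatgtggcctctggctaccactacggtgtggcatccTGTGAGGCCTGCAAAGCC
Esrrb: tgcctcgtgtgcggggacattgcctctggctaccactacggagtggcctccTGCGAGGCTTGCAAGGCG
Esrrg: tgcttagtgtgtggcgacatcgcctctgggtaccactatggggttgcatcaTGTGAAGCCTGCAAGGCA

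Esr1 and Esr2 shared 56 of the 69 bases. Esr1 shared 50 with Esrrb, 48 with Esrrg, 44 with Esrra and 41 with Pgr, and Esrra and Esrrb shared 57. Over the whole transcripts, the longest identical run between Esr1 and any of the other 5 receptors was the 17 bases it shares with Esr2. Esr1, Pgr and Esrrb overlap no other gene in that annotation. Greb1 shares 736 exon bases with the antisense gene Gm48140, and Esrra shares 73 with Trmt112 on the opposite strand and 91 with the miRNA gene Mir6990. The counting ignored strand per the names of the deposited files. Whether reads in these shared bases were counted for Greb1 and Esrra or set aside as ambiguous is not known here.

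The targeted gene was checked first. Csk stood at 18.3 CPM in WT35, 17.8 in WT338, 24.7 in KO26 and 35.5 in KO337, so the libraries labelled KO held more Csk reads than the WT libraries. The log2 difference was 0.74 and Csk was between 21.9 and 26.7 CPM in CTL and IBR. The labels do not say which exons the knockout removes, and counts over the whole gene do not show its functional state. KO and WT below mean the libraries labelled so. The libraries held 14907331 to 19960947 gene counts, and 3 counts in a library corresponded to 0.136 to 0.216 CPM. Scaling factors were 0.870 to 1.03 in CTL, IBR and WT, 1.16 in KO26 and 1.23 in KO337. In bulk tissue, fewer cells of a type and less RNA per cell cannot be told apart.

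Esr1 was low in 8 libraries and abundant in both KO libraries. It had 20, 30 and 62 counts in CTL, 61, 40 and 57 in IBR, 84 and 110 in WT35 and WT338, and 1703 and 5178 in KO26 and KO337. In CPM these were 1.14, 2.16 and 3.74 in CTL, 3.76, 2.30 and 3.49 in IBR, 4.16 and 6.92 in WT, and 98.9 and 234 in KO. The KO libraries thus held 6881 of all Esr1 counts, or 93.7%, against 464 in the other 8 libraries. The lower KO library was 14.3-fold above the higher WT library.

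The mean level of Esr1 was 167 ± 95.9 CPM in KO (SD, n = 2) and 5.54 ± 1.95 in WT (SD, n = 2). The fitted log2 difference was 4.92 (SE 0.56), a 30.3-fold ratio. Because Esr1 was chosen for this difference, it is given as a description with no test. KO26 stood at 17.9-fold and KO337 at 42.4-fold of the WT mean, and KO337 was 2.37-fold above KO26, while WT338 was 1.66-fold above WT35. Leaving out any of the 4 libraries left a log2 difference of 4.15 to 5.40.

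Few genes showed a gap of this kind. Esr1 was chosen for its rise in KO against WT, so its place among all genes is a description with no test. Of all genes tested, 22 had a larger log2 difference than Esr1, and 9 of these reached a mean log2 CPM of at least 1. Among the 12514 genes at that level with any count in WT, 2 had a lower KO library at least 14.3-fold above the higher WT library: Esr1 and H2-Eb1, a chain of an antigen-presenting MHC class II molecule, at 29.5-fold. H2-Eb1 was singled out after its values were seen, and reads of MHC genes can be split among close copies.

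A limit applies to every Esr1 value in KO. Parts of the oestrogen receptor, including the mouse ligand-binding domain in the MerCreMer fusion, are widely joined to Cre recombinase to make it respond to tamoxifen. The labels do not say whether such a Cre was used here. A count over the whole gene does not separate reads of the Esr1 transcript from reads of a transgene that carries part of its coding sequence, and this was not tested.

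**Figure D1:**
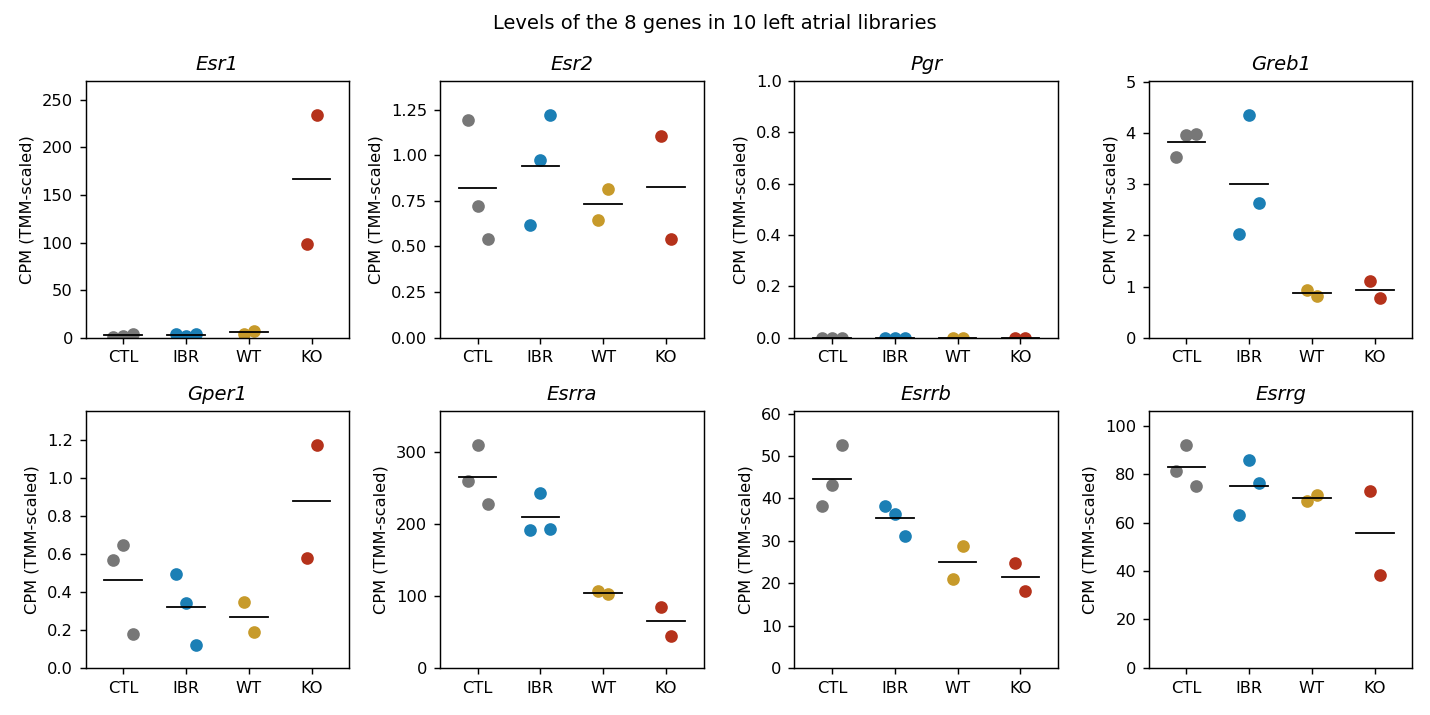
CPM (vertical axis, each panel with its own scale from 0) of the 8 genes in each library by group, 3 libraries each in CTL and IBR and 2 each in WT and KO; points are libraries and lines are group means. Esr1 reaches 98.9 and 234 CPM in KO and at most 6.92 elsewhere, and Pgr is at 0 throughout. The lowest Esrra, Esrrb and Esrrg values are those of KO337.

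Levels of different genes were compared per kilobase of exon. The length was that of all annotated exons of a gene joined, 13.7 kilobases for Esr1, which can exceed that of the transcript present. In CTL the mean was 60.5 CPM per kilobase for Esrra, 13.4 for Esrrg, 7.38 for Esrrb, 0.399 for Greb1, 0.243 for Esr2, 0.184 for Gper1 and 0.172 for Esr1. The oestrogen-related receptors were therefore the abundant members, in the order Esrra, Esrrg and Esrrb, with no overlap between them in CTL. The ranges of Esr2, Gper1 and Esr1 in CTL overlapped and gave no order among them.

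The order was different in the KO libraries. Esr1 stood at 7.24 CPM per kilobase in KO26, below Esrra at 19.2 and Esrrg at 11.8 and above Esrrb at 4.08. This place rests on the length used. In CPM, KO26 had Esr1 at 98.9, Esrra at 84.3, Esrrg at 73.2 and Esrrb at 24.7. In KO337 Esr1 stood at 17.2 CPM per kilobase, above Esrra at 10.2, Esrrg at 6.21 and Esrrb at 3.00. Among 49 genes of the nuclear receptor family ranked by CPM per kilobase, Esr1 was in places 35 to 38 in the CTL, IBR and WT libraries. It was in place 17 in KO26 and in place 8 in KO337. Its share of the summed level of the family was at most 0.106% outside KO, 1.70% in KO26 and 4.64% in KO337.

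The differences of the other nuclear receptors were smaller. Of the 48 others, 38 could be tested, with KO minus WT log2 differences from -1.54 for Nr1i3 to 1.44 for Nr5a2 and a median of -0.17, against a median of 0.01 over all genes. In 5 of them the difference exceeded 1 in either direction. By edgeR's quasi-likelihood test with Benjamini-Hochberg adjustment over all genes, 0 of the 38 rose and 1 fell, where 1.31% and 0.898% of all genes passed the test (adjusted p under 0.05) as higher and as lower. The 1 was Nr1d2, a clock repressor, at 184 and 232 CPM in WT and 99.5 in both KO libraries (log2 difference -1.06, adjusted p = 0.0426). It no longer passed edgeR's test with upper quartile scaling (adjusted p = 0.0510), with the 4 libraries fitted alone (0.297), or without WT35 (0.142), WT338 (0.197) or KO337 (0.135).

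Over 44 of the other receptors, DESeq2 called 1 higher and 4 lower, where it called 6.20% and 6.43% of all genes. Here and below, its shares in KO minus WT are of the 14521 genes it gave an adjusted p. Its list totals can include genes without one. The fit without a count filter called 1 higher and 3 lower (1.91% and 2.77% of all genes). The median of the receptors depended on single libraries. Without KO337 it was -0.030, against -0.031 over all genes, with 0 called. Without KO26 it was -0.33, with 1 called higher and 11 lower, where that fit called 11.3% and 13.0% of all genes.

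**Figure D2:**
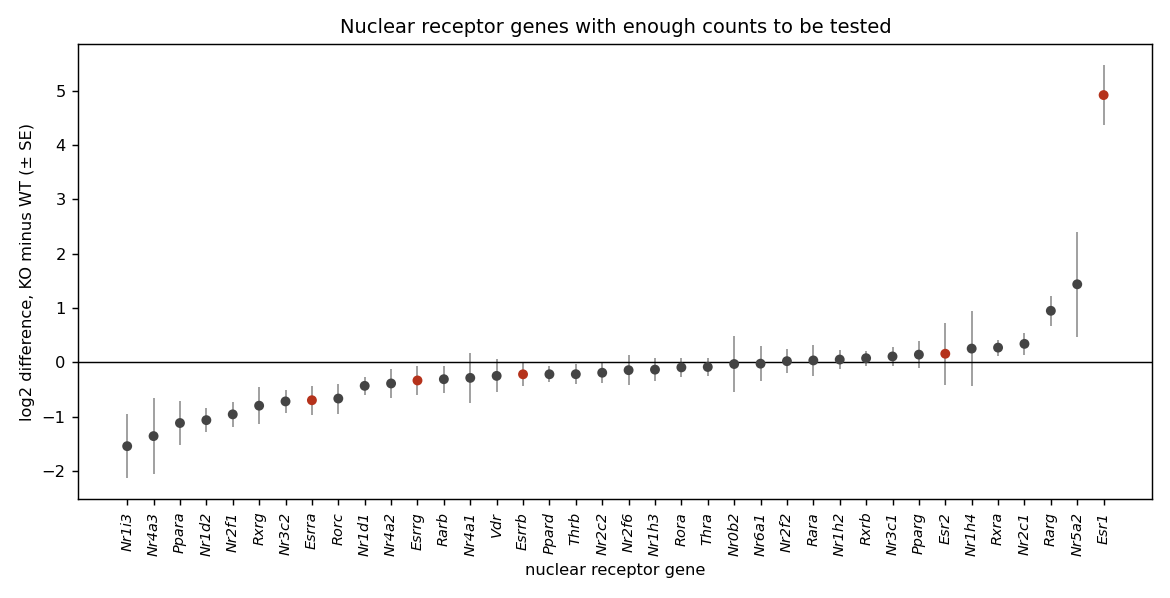
Log2 difference KO minus WT with its SE (vertical axis) for nuclear receptor genes that could be tested, in ascending order, with the oestrogen and oestrogen-related receptors in red. Esr1 lies at 4.92, and the others shown lie between -1.54 and 1.44.

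The other nuclear oestrogen receptor gene was low in all libraries and did not differ past the test. Esr2 had 9 to 21 counts per library: 1.19, 0.721 and 0.543 CPM in CTL, 0.617, 0.976 and 1.22 in IBR, 0.643 and 0.817 in WT, and 1.10 and 0.543 in KO. The KO values enclosed the WT values. The KO minus WT log2 difference was 0.16 (SE 0.57, 95% interval -1.10 to 1.42, adjusted p = 0.889 by edgeR's quasi-likelihood test). Differences of either sign within that interval are compatible with these counts. IBR minus CTL was 0.19 (SE 0.46, adjusted p = 0.949).

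Gper1, the membrane receptor gene, had only 2 to 26 counts per library. It stood at 0.569, 0.649 and 0.181 CPM in CTL, 0.493, 0.345 and 0.122 in IBR, 0.346 and 0.189 in WT, and 0.580 and 1.18 in KO. Both KO libraries lay above both WT libraries, which was also so for 26.3% of all genes tested. The log2 difference of 1.68 (SE 0.75, 95% interval 0.00486 to 3.35) did not pass edgeR's quasi-likelihood test (adjusted p = 0.193), nor did the difference of -0.52 in IBR minus CTL (SE 0.66, adjusted p = 0.893).

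Of the classical oestrogen target genes, Pgr had no read and Greb1 showed no difference past the test. Pgr, the progesterone receptor gene, was listed at 0 counts in all 10 libraries, KO26 and KO337 included, out of 173064646 gene counts in total. A count of 0 allows up to 0.0173 CPM over the whole set, or 0.136 to 0.216 CPM in a library, for counting error only. Greb1, which encodes a coactivator of the alpha receptor, stood at 3.53, 3.96 and 3.98 CPM in CTL, 2.04, 4.36 and 2.63 in IBR, 0.940 and 0.817 in WT, and 1.10 and 0.770 in KO. KO enclosed WT, with a log2 difference of 0.08 (SE 0.44, 95% interval -0.90 to 1.06, adjusted p = 0.938 by edgeR's quasi-likelihood test).

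For IBR minus CTL, Greb1 differed by -0.34 (SE 0.31, adjusted p = 0.862), and the groups overlapped. All CTL and IBR libraries were above all WT and KO libraries in Greb1, a difference between experiments that cannot be told apart from batch and was not tested.

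A wider list of oestrogen receptor target genes gave no shared direction in KO. Of its 34 genes with a row, 27 had enough counts, Greb1 among them. In KO minus WT, 0 of the 27 rose and 1 fell, against 1.31% and 0.898% of all genes, and 13 were above 0 and 14 below, with a median log2 difference of -0.03 that ran from -0.17 without KO337 to 0.08 without WT338. The 1 was Olfm1, which encodes a secreted olfactomedin glycoprotein: 127 and 112 CPM in WT, 53.8 and 48.6 in KO (log2 difference -1.22, SE 0.22, adjusted p = 0.0329). Olfm1 also passed by DESeq2 (adjusted p = 3.72e-05), by limma-voom (0.0251) and in edgeR's test with RLE (0.0320) or upper quartile scaling (0.0403). It passed there with no count filter (0.000181) or a CPM filter (0.0328) too. With the 4 libraries fitted alone it did not pass (0.297), in a fit that called 0 genes. Without WT35, WT338 or KO337 it no longer passed, at log2 differences of -1.14, -1.32 and -1.17. Without KO26 the difference was -1.32.

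At the other end of that list, chosen after its values were seen, Susd3 stood at 0.445 and 0.377 CPM in WT and 1.68 and 2.31 in KO (log2 difference 2.26, SE 0.59, adjusted p = 0.0678). C3, the central complement protein and an oestrogen target in the uterus, stood at 1012 and 1585 CPM in WT and 1198 and 1217 in KO (log2 difference -0.11, adjusted p = 0.900). DESeq2 called 3 of the target genes higher and 2 lower, where it called 6.20% and 6.43% of all genes. The fit without a count filter called 2 higher and 2 lower (1.91% and 2.77%), and the fit without KO26 called 5 higher and 2 lower, where it called 11.3% and 13.0%.

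Partners of the receptor showed no call by edgeR's quasi-likelihood test. Of 26 coregulator and chaperone genes tested, 0 passed in KO minus WT as higher or as lower, against 1.31% and 0.898% of all genes, with a median log2 difference of -0.20. DESeq2 and the fit without a count filter each called 2 lower (6.43% and 2.77% of all genes). The fit without KO26 called 4 lower (13.0%) with a median of -0.33, and without WT338 the median was -0.08. The smallest p was that of Hspa8, a constitutive heat shock chaperone, at 1363 and 937 CPM in WT and 625 and 529 in KO (log2 difference -0.996, SE 0.25, adjusted p = 0.0628 by edgeR's quasi-likelihood test). Nrip1, a corepressor that is also an oestrogen target, stood at 69.6 and 112 CPM in WT and 72.2 and 72.9 in KO (log2 difference -0.32, adjusted p = 0.500).

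Of the genes that make and break down oestrogens, 9 could be tested and 0 passed edgeR's quasi-likelihood test in KO minus WT as higher or as lower, against 1.31% and 0.898% of all genes. The median log2 difference was 0.15. It was -0.19 with no count filter and -0.20 by DESeq2, both over 15 genes and with 0 called. Without KO337 it was 0.02, and without KO26 it was -0.01, with 2 of 10 called higher (11.3% of all genes). Cyp19a1, which encodes the aromatase that makes oestrogens from androgens, was listed at 0 counts in all 10 libraries. Hsd17b4, a peroxisomal dehydrogenase that oxidises oestradiol, had the smallest p, at 105 and 104 CPM in WT and 83.1 and 78.1 in KO (log2 difference -0.37, adjusted p = 0.122).

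Among the other steroid receptors, Nr3c1, the glucocorticoid receptor gene, stood at 148 and 156 CPM in WT and 185 and 143 in KO (log2 difference 0.11, adjusted p = 0.727). Nr3c2, the mineralocorticoid receptor gene, stood at 51.4 and 62.7 in WT and 39.6 and 29.8 in KO (-0.72, adjusted p = 0.0848). None of the 10 genes tested in the list of other steroid receptors and their targets passed edgeR's quasi-likelihood test. Of all genes, 1.31% passed as higher and 0.898% as lower. The median of the 10 was 0.06. The median was -0.02 with no count filter and ran up to 0.21 without WT338. DESeq2 and the fit without a count filter each called 1 lower, where they called 6.43% and 2.77% of all genes as lower. Without KO26 the median was 0.12.

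None of the oestrogen-related receptors passed the test in KO minus WT, and the lowest values of Esrra, Esrrb and Esrrg were those of KO337. Esrra stood at 259, 310 and 228 CPM in CTL, 192, 244 and 194 in IBR, 107 and 102 in WT, and 84.3 and 44.8 in KO. Both KO libraries lay below both WT libraries, which was also so for 26.9% of all genes tested. The log2 difference was -0.70 (SE 0.27, 95% interval -1.29 to -0.10) and did not pass edgeR's quasi-likelihood test (adjusted p = 0.145).

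Esrrg, the form most tied to the perinatal switch of heart muscle to oxidative metabolism, stood at 81.5, 92.2 and 75.2 CPM in CTL, 63.2, 85.9 and 76.3 in IBR, 69.1 and 71.4 in WT, and 73.2 and 38.5 in KO. KO26 was level with WT and KO337 was at 0.549 of the WT mean. The log2 difference was -0.33 (SE 0.26, adjusted p = 0.447). Without KO26, Esrra passed at -1.24 (adjusted p = 0.0027) and Esrrg at -0.88 (adjusted p = 0.00964), in a fit that called 3933 genes. Without KO337 the values were -0.33 and 0.04, and neither passed.

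Esrrb, best known from pluripotent stem cells and the placenta, stood at 38.2, 43.1 and 52.6 CPM in CTL, 38.2, 36.4 and 31.1 in IBR, 21.0 and 28.8 in WT, and 24.7 and 18.1 in KO. Its KO and WT ranges overlapped, with a log2 difference of -0.22 (SE 0.22, 95% interval -0.71 to 0.28, adjusted p = 0.571 by edgeR's quasi-likelihood test).

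Coactivators and target genes of the oestrogen-related receptors lay below WT as a group, with 0 of 38 passing the test. All 38, Esrra itself among them, had a negative KO minus WT log2 difference, where 49.2% of all genes tested did. The median was -0.83, with a range from -1.80 for Pdk4 (named after its values were seen) to -0.10 for Gabpa, and in 36 both KO libraries lay below both WT libraries, as did 26.9% of all genes. An unadjusted p under 0.05 was reached by 31 of 38, and by 25.7% of all genes. DESeq2 called 23 of the 38 lower (6.43% of all genes), the fit without a count filter 13 (2.77%) and the fit without KO26 33 (13.0%). The median was -1.40 without KO26 and -0.46 without KO337, where 0 of the 38 were called and 37 were negative.

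Casq2, the calcium-binding protein of the sarcoplasmic reticulum, had the smallest p, at 1268 and 1378 CPM in WT and 823 and 558 in KO (log2 difference -0.94, SE 0.23, adjusted p = 0.0601 by edgeR's quasi-likelihood test). Ppargc1a, the PGC-1 alpha coactivator gene, stood at 272 and 725 CPM in WT and 151 and 225 in KO (-1.41, SE 0.69, adjusted p = 0.228). Perm1, a muscle regulator induced by PGC-1 and these receptors, stood at 250 and 281 in WT and 199 and 99.5 in KO (-0.83, adjusted p = 0.106). Ppargc1b stood at 25.9 and 23.4 in WT and 22.9 and 16.3 in KO (-0.33, adjusted p = 0.271).

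Heart muscle markers were also lower in value. The summed level of 11 atrial cardiomyocyte markers was 80360 to 85124 CPM in WT, 63451 in KO26 and 34014 in KO337. All 10 markers tested had negative differences, where 49.2% of all genes did. In 9 of the 10 both KO libraries lay below both WT libraries, as in 26.9% of all genes. An unadjusted p under 0.05 by edgeR's quasi-likelihood test was reached by 7 of the 10 and by 25.7% of all genes. None passed as lower, against 0.898% of all genes. Relative to the WT mean, KO26 stood at 0.767 for the cardiomyocyte markers, 0.724 for the summed 38 genes and 0.807 for Esrra. KO337 stood at 0.411, 0.371 and 0.429 in the same order. The part of the markers' difference in that of Esrra and the 38 genes was not tested.

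**Figure D3:**
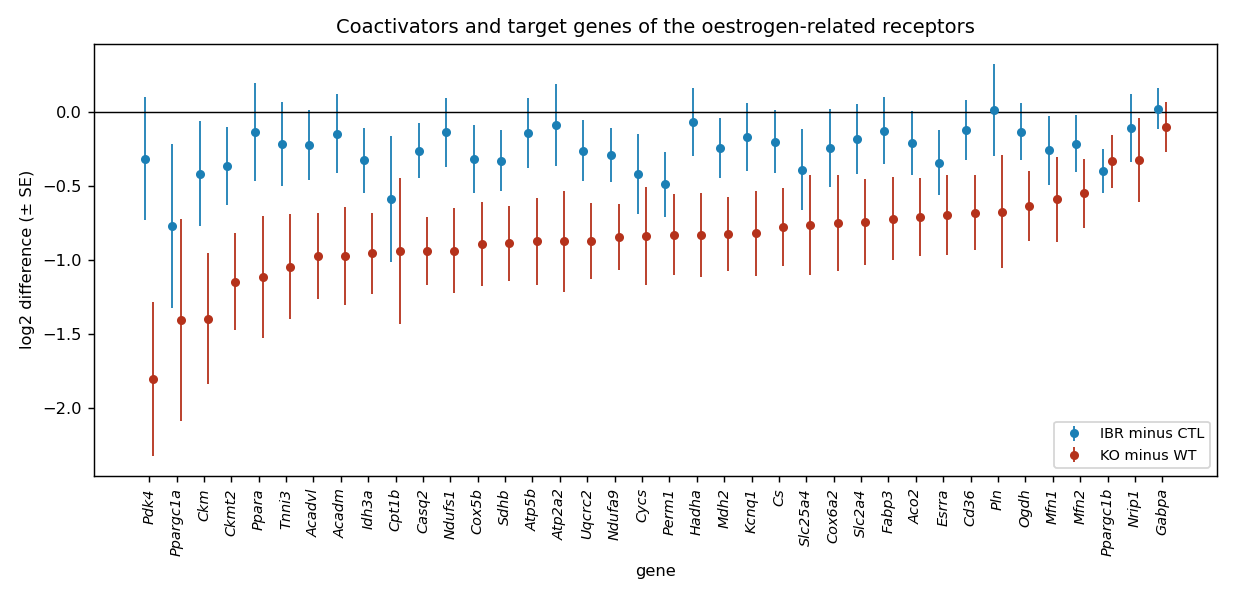
Log2 differences with their SE (vertical axis) of the 38 coactivator and target genes of the oestrogen-related receptors, KO minus WT in red and IBR minus CTL in blue, ordered by the first. The 38 red points lie between -1.80 and -0.10, and 36 of the 38 blue points lie below 0.

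Summed markers of several other cell types were also higher in KO337 than in KO26. The summed level of 10 macrophage and monocyte markers was 471 to 612 CPM in WT, 826 in KO26 and 3229 in KO337. All 10 had positive KO minus WT differences, where 49.2% of all genes tested lay below 0. Of the 10, 3 passed edgeR's quasi-likelihood test as higher, against 1.31% of all genes. For 10 fibroblast markers the sum was 5093 to 5569 in WT, 5784 in KO26 and 16929 in KO337, with 9 positive and 0 passing. Sums of smooth muscle and pericyte markers were 497 to 513 in WT, 572 in KO26 and 1056 in KO337, and 0 of 8 passed.

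Endothelial marker sums were 1400 to 1724 CPM in WT, 1660 in KO26 and 2043 in KO337, and 0 of 8 passed. The 7 T and B cell markers summed to 3.07 to 4.53 in WT, 13.7 in KO26 and 12.9 in KO337, and 2 passed as higher, against 1.31% of all genes. Epicardial and mesothelial markers summed to 315 to 316 in WT, 277 in KO26 and 129 in KO337, and 0 of 6 passed. The adipocyte sum was 168 to 248 in WT and 211 and 265 in KO, with 0 of 5 passing. Of these lists, 3 adipocyte markers and 2 T and B cell markers had no count in at least 1 library, and no marker of the other lists did.

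Set against the WT mean, Esr1 in KO26 stood at 17.9-fold where the macrophage sum stood at 1.52-fold, the fibroblast sum at 1.08-fold, the smooth muscle sum at 1.13-fold, the endothelial sum at 1.06-fold and the T and B cell sum at 3.61-fold. In KO337 Esr1 stood at 42.4-fold, against 5.96, 3.18, 2.09, 1.31 and 3.41 in the same order. From KO26 to KO337, Esr1 differed 2.37-fold, the macrophage sum 3.91-fold and the fibroblast sum 2.93-fold. In KO26 the Esr1 ratio was larger than that of any marker sum given here, but Esr1 was chosen for its rise in KO. A sum weighs abundant markers most. KO minus WT log2 differences of single markers ran from 0.12 to 3.90 for macrophages and -0.92 to 3.13 for fibroblasts. They ran from -0.07 to 3.56 for smooth muscle, -0.31 to 0.66 for endothelium and -0.56 to 4.14 for T and B cells, against 4.92 for Esr1. The part of cell composition in the Esr1 values was not tested.

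**Figure D4:**
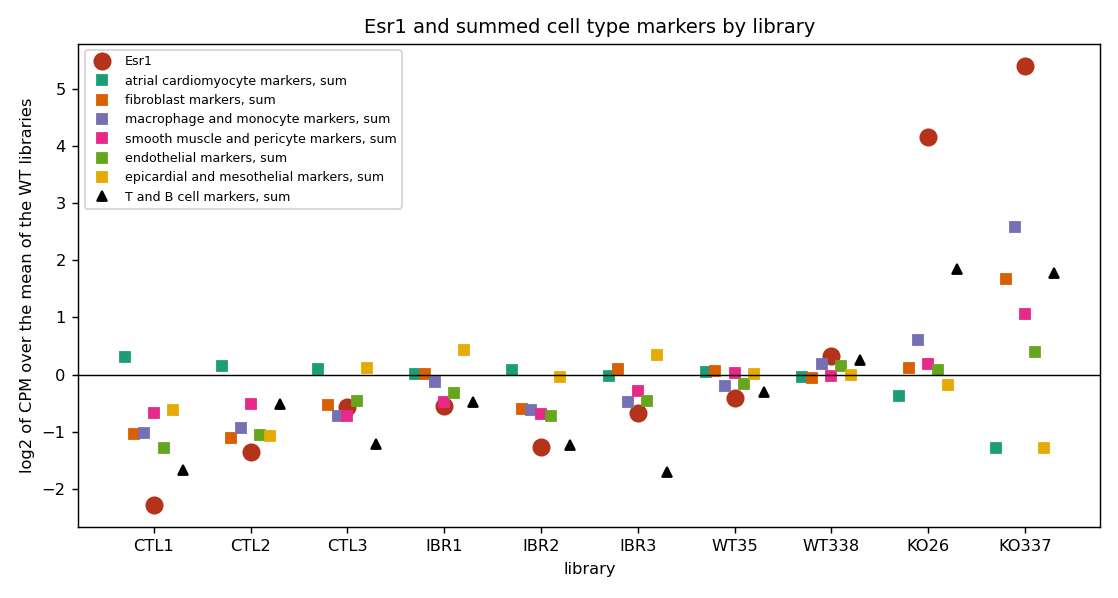
Log2 of the CPM over the mean of the WT libraries (vertical axis) for Esr1 (large red circles) and for summed markers of 7 cell types in each of the 10 libraries. In KO26 Esr1 lies at 17.9-fold of WT while the marker sums lie between 0.767-fold and 3.61-fold, and in KO337 at 42.4-fold against 0.410-fold to 5.96-fold.

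The genes whose pattern over the 10 libraries was most like that of Esr1 were found among 11867 genes whose mean log2 CPM was at least 1, by the root mean square distance of log2 CPM centred on its mean. This ranking uses the same libraries that chose Esr1, and the points share library and tissue composition, so it is a description. The mean log2 CPM was taken over all 10 libraries, so genes nearly absent outside KO could enter through the KO libraries. Havcr2, for example, had 1 to 16 counts per library outside KO and 74 and 540 in KO. Glipr1 had 1 to 15 outside KO and 47 and 455 in KO. Frzb, a secreted Wnt antagonist, was nearest at a distance of 0.721 (Pearson r 0.963 over 10 libraries), against a median distance of 2.36. Frzb stood at 3.46 and 6.79 CPM in WT and 16.1 and 92.7 in KO.

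The next were Havcr2, the immune checkpoint receptor TIM-3 (0.759), Rgs1, a regulator of G protein signalling (0.766), Cx3cr1, the fractalkine receptor (0.792), and Mpeg1, a pore-forming protein of macrophages (0.795). They were followed by Atp8b4 of the phospholipid flippase family (0.799), Glipr1 (0.831) and Sla, a Src-like adaptor (0.855). Their levels in KO26 were closer to WT than that of Esr1. Cx3cr1, for example, stood at 2.32 and 1.07 CPM in WT, 12.9 in KO26 and 24.0 in KO337, and Mpeg1 at 35.9 and 12.0 in WT, 107 in KO26 and 730 in KO337.

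None of the tested genes next to Esr1 passed the test in KO minus WT. Of the 5 nearest protein-coding genes on each side in the annotation's gene order, Syne1 and Gm10097 were not analysed here, and Ccdc170 and Vip had too few counts to be tested. The closest tested genes were Armt1, a protein methyltransferase gene, at 13.3 and 13.4 CPM in WT and 17.1 and 16.0 in KO (log2 difference 0.31, adjusted p = 0.226 by edgeR's quasi-likelihood test), and Myct1, at 7.52 and 5.47 in WT and 11.4 and 14.4 in KO (0.99, adjusted p = 0.0903). Ccdc170, directly before Esr1, stood at 0.198 and 0.189 CPM in WT and 0.232 and 0.453 in KO.

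Farther out, Akap12, a scaffold for protein kinase A, stood at 486 and 447 CPM in WT and 262 and 206 in KO (-0.995, adjusted p = 0.127). Fbxo5, an inhibitor of the anaphase-promoting complex, stood at 0.989 and 0.503 in WT and 2.38 and 2.08 in KO (1.55, adjusted p = 0.134). Rmnd1 and Zbtb2 differed by -0.48 (adjusted p = 0.197) and 0.13 (adjusted p = 0.789). By edgeR's quasi-likelihood test 0 of the 6 tested neighbours passed, where 2.21% of all genes did.

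**Figure D5:**
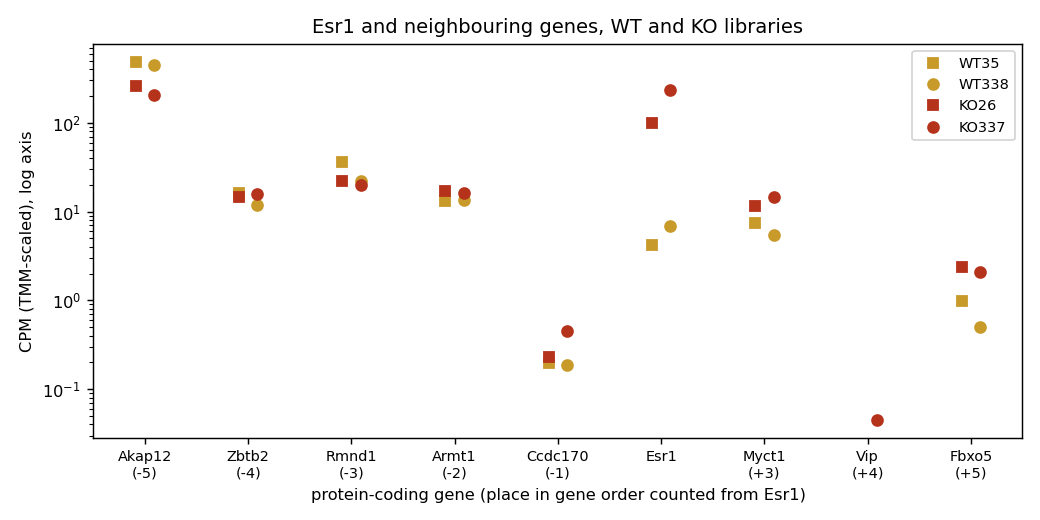
CPM on a log axis of Esr1 and of 8 neighbouring protein-coding genes in gene order, in the WT (yellow) and KO (red) libraries, squares for WT35 and KO26 and circles for WT338 and KO337; values of 0 (Vip in 3 libraries) are not drawn. Esr1 is the gene with a wide gap between the WT points, at 4.16 and 6.92, and the KO points, at 98.9 and 234.

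The promoter windows of the 8 genes were searched on both strands for an oestrogen response element (GGTCANNNTGACC), the extended site of the oestrogen-related receptors (TCAAGGTCA) and the half-site GGTCA, which lies within both. Windows were the 250 bases before each RefSeq start (GRCm38.p6), 14 for the 8 genes. None held either full motif, which 0.0639% and 0.387% of 32851 windows did. The half-site was in 4 of the 14, or 28.6%, against 35.2% of all windows, and in neither of the 2 windows of Esr1. Of the 38 coactivator and target genes of the oestrogen-related receptors, 28 had a window, and 0 of their 36 windows held either full motif. These letters say nothing of sites elsewhere.

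Ibrutinib against vehicle gave no called gene. By edgeR's quasi-likelihood test 0 of 15364 genes (0%) passed, with 848 (5.52%) at an unadjusted p under 0.05, and DESeq2 called 2. Esr1 averaged 3.18 ± 0.778 CPM in IBR and 2.35 ± 1.31 in CTL (SD, n = 3 each). The IBR range lay within that of CTL but for 1 library at 3.76 against a CTL maximum of 3.74. The log2 difference was 0.44 (SE 0.49, 95% interval -0.66 to 1.53, adjusted p = 0.885). Leaving out 1 library moved it from 0.09 (without CTL1) to 0.97 (without CTL3), and it passed in none of these fits. Whether this difference departs from that of KO minus WT, for which Esr1 was chosen, was not tested.

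The oestrogen-related receptors were slightly lower on average in IBR, within the spread. IBR minus CTL was -0.34 for Esrra (SE 0.22, 95% interval -0.83 to 0.14, adjusted p = 0.824 by edgeR's quasi-likelihood test), -0.34 for Esrrb (SE 0.18, adjusted p = 0.823) and -0.14 for Esrrg (SE 0.21, adjusted p = 0.910). In all 3 genes the groups overlapped. Of their 38 coactivator and target genes, 36 lay below 0, where 55.2% of all genes did, with a median of -0.23 against -0.03 over all genes. In 13 of the 38 all IBR libraries lay below all CTL libraries, against 7.55% of all genes, and 0 passed the test.

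In the same comparison the summed atrial cardiomyocyte markers were 88468 to 101821 CPM in CTL and 80990 to 87931 in IBR, and the fibroblast sum 2462 to 3697 in CTL and 3502 to 5711 in IBR. Their part in the values of the oestrogen-related receptors was not tested. Of the 27 oestrogen target genes tested, 14 were above 0 and 13 below (median 0.04, from -0.05 without CTL1 to 0.09 without CTL3), and 0 passed. All 10 genes tested in the list of other steroid receptors and their targets lay above 0, with a median of 0.32, and 0 passed. Leaving out 1 library left 7 (without IBR3) to 10 of them above 0, and the median was 0.20 without CTL2. In 2 of the 10 all IBR libraries lay above all CTL libraries, against 5.91% of all genes.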

How the data were processed

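Per the labels' protocols, the 10 libraries were made from polyadenylated RNA with a kit that keeps strand. The files as deposited hold raw read counts for each gene, not normalized. STAR, HTSeq, edgeR and build mm9 are named in the submitters' processing notes, without versions. The annotation counted against is not given in the sources used here. The 5 rows of unassigned reads in each file were left out, of which reads in no feature were 13.5% to 19.9% of each library's records. Symbols, exon lengths and gene order came from GENCODE vM21 (GRCm38, so none of its coordinates are printed), and 32860 gene rows (87.4%) had a symbol. RefSeq gave the promoter windows.

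Groups came from the sample titles. Counts were filtered with filterByExpr (minimum count 10, minimum total 15), scaled by TMM and fitted in 1 robust edgeR 4.0.16 quasi-likelihood model with a mean per group (R 4.3.3, 6 residual degrees of freedom). Adjusted p-values in the text are from this model with Benjamini-Hochberg adjustment over 15364 genes unless another tool is named, and genes passed at an adjusted p under 0.05. A standard error is the log2 difference over the root of its F statistic. Alternatives were RLE and upper quartile scaling, other filters, DESeq2 1.42.0, limma-voom (limma 3.58.1), the compared groups alone, a replicate block and each library left out. The procedure was tested on simulated counts.

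The members and gene lists were chosen with earlier results of these data known. Of 242 list genes 237 had a row. Genes named in the text were the 8 members, Csk, cofactors and steroid receptors, from each list up to 3 genes that passed per direction or else the gene with the smallest p, the 8 genes most like Esr1 and its nearest neighbours, and a few named as singled out after their values were seen. A gene of the steroid receptor list is not reported here by name or drawn, and it stays in all counts and tests.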

Additional observations from a re-analysis of the deposited data

How the results depend on the processing

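Of 78 log2 differences recomputed, 39 kept their direction and side of the threshold under every alternative run, 20 changed direction in at least 1 and 20 gained or lost a call. For IBR minus CTL 2 genes were called with no count filter and 2 by DESeq2. For KO minus WT the count of 339 became 1146 with no count filter, 1835 by DESeq2 and 0 with the 4 libraries fitted alone (2115 at an unadjusted p under 0.05), and it ran from 14 (without WT35) through 21 (without WT338) and 55 (without KO337) to 3933 (without KO26). The cause was not tested. The numbers in CTL and IBR titles were not taken to pair the libraries. Correlations of deviations from the group means over 15364 genes were 0.0159, 0.162 and 0.0321 for same numbers. For different numbers they ran from -0.197 to 0.182. With so few libraries these values cannot show whether the numbers mark pairs. With the replicate block on the 6 CTL and IBR libraries, 0 genes were called and 1731 had an unadjusted p under 0.05. Without the block these libraries gave 0 and 1308. The mean Greb1 level in CTL was 3.49 CPM without TMM.

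Differences near 0 reversed. Csk in IBR minus CTL was 0.0171 with no filter and 0.000472 with both groups alone, and Zbtb2 was -0.0281 by limma-voom. Leaving out 1 library at a time, IBR minus CTL ran from -0.0446 to 0.572 for Esr2, -0.114 to 0.0327 for Csk, -1.12 to 0.195 for Ppargc1a, -0.237 to 0.166 for Nrip1, -0.267 to 0.0804 for Olfm1, -0.0103 to 0.324 for Nr1d2, -0.251 to 0.437 for Frzb, -0.460 to 1.12 for Havcr2, -0.268 to 0.434 for Akap12 and -0.133 to 0.210 for Zbtb2. KO minus WT ran from -0.430 to 0.579 for Esr2, -0.211 to 0.300 for Greb1, -0.472 to 0.0169 for Esrrb, -0.883 to 0.0403 for Esrrg, -0.634 to 0.0496 for Nrip1, -0.103 to 0.264 for Nr3c1, -0.398 to 0.243 for C3, -0.253 to 0.936 for Gata3, -0.0965 to 0.180 for Eif2s3y and -0.0873 to 0.370 for Zbtb2. With 1 library left in a group, its spread is taken from the other groups. Esr1 was 4.15 to 5.40 in KO minus WT over all alternatives run. Depth limits Esr2 and Gper1, which had at most 26 counts in a library.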
